A study of Mus musculus with 6 samples.

Results

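AP-1 and immediate early genes were compared between leukemia cells from AG636-treated and vehicle-treated mice, mouse by mouse. The group comprised 10 genes listed by name out of the 54838 genes of the deposited table: Fos, Fosb, Jun, Junb, Jund, Egr1, Ier2, Dusp1, Nr4a1 and Zfp36. All 10 had counts, and 9 passed the filter on low counts. Nr4a1, with 44 counts over the 6 libraries, did not pass it. The cells were I1DN cells, a murine acute myeloid leukemia (AML) on a C57BL/6 background carrying IDH1R132H, DNMT3AR882H and NrasG12D, alleles that both groups shared. The leukemia was built by transducing fetal liver progenitors, was kept as frozen cells of a moribund mouse, and was grown in sub-lethally irradiated congenic Ptprca recipients, so the sorted tissue could also hold host cells. The 3 AG636 mice received this inhibitor of DHODH, the enzyme of pyrimidine synthesis that makes orotate, at 100 mg/kg by gavage b.i.d., and the other 3 mice received vehicle. The immature cKit-positive, CD11b-negative fraction was sorted, and 3′ end RNA sequencing was performed. The sources used here give the treatment time in more than one way, and whether a library came from bone marrow or spleen is not stated, so neither was used.

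Immediate early genes are transcribed within minutes of a stimulus, without new protein synthesis, and most of their transcripts are short-lived. AP-1 is a dimer of a Fos protein with a Jun protein, or of Jun proteins with each other, and binds DNA downstream of MAP kinase signaling. In myeloid cells these factors are known for their part in differentiation and in stress responses. They are also known to respond to tissue dissociation and sorting.

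Among the vehicle mice, these genes differed more than among the AG636 mice. Vehicle 1 was the lowest vehicle mouse for 10 of the 10 genes, Vehicle 3 was the highest for 9 of them, and Vehicle 3 was above all 3 AG636 mice for 5 (Fos, Fosb, Junb, Ier2 and Nr4a1). Over all genes tested, Vehicle 1 was the lowest vehicle mouse for 36.4%. The AG636 mice were all above Vehicle 1 and Vehicle 2 for 8 genes, Egr1 and Nr4a1 being the exceptions. That pair leaves out the vehicle mouse that was highest for 9 genes. No share over all genes was taken for it or for the counts on Vehicle 3, so these counts describe the members alone. Against the whole vehicle group, Jun alone passed the test, at 1.85-fold higher levels, a call that was lost when any one of 5 of the 6 mice was left out. The 9 tested log2 fold changes were all positive, between 0.25 and 0.89 with a median of 0.45, where the median of all 11092 genes tested was 0.03 and 52.3% of them were positive. Scaling by RLE size factors or by library size alone also left all 9 positive.

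**Figure D1:**
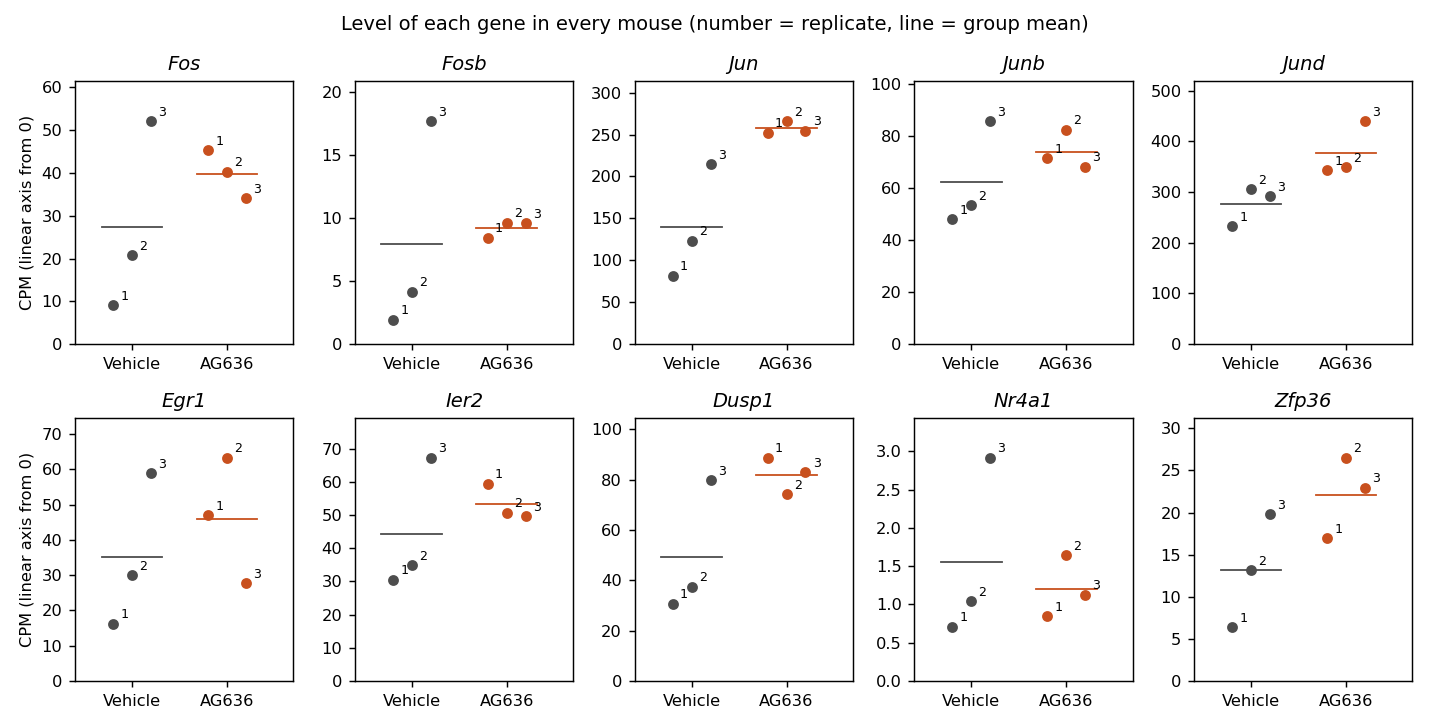
Level (CPM, linear axes from 0) of each of the 10 genes in every mouse, with vehicle in grey, AG636 in orange, the replicate number beside each point and a line at the group mean of 3 mice. The vehicle points climb far above and below their mean for most genes (Fos, 9.07 to 52.1 CPM). The AG636 points lie closer together than the vehicle points except for Jund, though Egr1 is wide in AG636 too (27.6 to 63.2 CPM). The groups are separate for Jun and Jund.

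The libraries held between 4634963 and 7906589 assigned reads, so a count of 3 stood for 0.391 to 0.635 CPM. The 10 genes together took 0.0437%, 0.0606% and 0.0879% of the counts in the 3 vehicle libraries and 0.0951%, 0.0994% and 0.103% in the AG636 libraries. Across all genes tested, 1146 were called higher and 1222 lower in AG636. Kit, the receptor of the sort gate, had 31.7 to 46.1 CPM in the 6 libraries. Itgam, which encodes CD11b, had 12.1 to 26.9 CPM in vehicle and 31.2 to 59.9 in AG636 (log2 fold change 1.21 ± 0.31 SE, adjusted p = 0.0219, edgeR). The unit CPM is a gene's count relative to its library's total, after TMM scaling of the totals. Each transcript yields reads near its end, so the values do not grow with gene length, but they are used below to compare mice, not genes. In all fold changes AG636 is set against vehicle, and p-values come from the quasi-likelihood test of edgeR and were adjusted over all 11092 genes by the Benjamini-Hochberg method. In these bulk samples, fewer cells of a type and less RNA per cell cannot be told apart.

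The regulatory sequence of 4 genes is shown first, because they carry the results that follow: Jun, the gene that passed the test, Fos, Dusp1 and Zfp36. Each line gives 250 bases before and 50 after the RefSeq start, in the sense of the gene, on GRCm38.p6. Fos lies at chr12:85473640-85473939 (plus strand), Jun at chr4:95052173-95052472 (minus), Dusp1 at chr17:26508423-26508722 (minus) and Zfp36 at chr7:28379179-28379478 (minus). Capitals mark letters matching the AP-1 site TGANTCA, the cAMP response element TGACGTCA or its first letters TGACG, the wider AP-1 and CREB type site TGANNTCA, the CArG box bound by SRF, the EGR site GCGNGGGCG, the YY1 letters CCATNTT, and TATAAA, on either strand.
Jun: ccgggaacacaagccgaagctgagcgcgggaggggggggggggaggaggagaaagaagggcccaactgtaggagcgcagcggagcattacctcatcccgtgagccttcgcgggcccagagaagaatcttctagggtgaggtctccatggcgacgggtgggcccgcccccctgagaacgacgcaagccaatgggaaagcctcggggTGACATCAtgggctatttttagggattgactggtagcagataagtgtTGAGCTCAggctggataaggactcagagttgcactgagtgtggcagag
Fos: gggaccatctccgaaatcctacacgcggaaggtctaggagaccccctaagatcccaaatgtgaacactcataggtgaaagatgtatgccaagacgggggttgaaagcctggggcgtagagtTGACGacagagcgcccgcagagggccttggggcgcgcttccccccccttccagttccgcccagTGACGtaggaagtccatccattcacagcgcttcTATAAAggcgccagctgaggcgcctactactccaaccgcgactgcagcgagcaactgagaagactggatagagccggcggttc
Dusp1: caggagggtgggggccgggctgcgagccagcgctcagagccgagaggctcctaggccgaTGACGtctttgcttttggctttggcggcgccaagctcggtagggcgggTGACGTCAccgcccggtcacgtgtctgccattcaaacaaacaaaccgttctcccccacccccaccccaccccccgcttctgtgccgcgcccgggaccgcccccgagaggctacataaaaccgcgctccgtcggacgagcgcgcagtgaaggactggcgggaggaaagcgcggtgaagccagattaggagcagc
Zfp36: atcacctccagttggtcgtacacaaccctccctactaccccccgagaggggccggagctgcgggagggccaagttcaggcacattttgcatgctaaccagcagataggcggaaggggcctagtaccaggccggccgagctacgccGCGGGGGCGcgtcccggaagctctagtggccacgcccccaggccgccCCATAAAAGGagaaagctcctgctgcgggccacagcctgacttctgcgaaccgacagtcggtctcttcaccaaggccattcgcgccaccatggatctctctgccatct
In the Jun window, TGACATCA began 45 bases before the start and TGAGCTCA at base 3 after it. Fos held TGACG 129 and 66 bases before the start and TATAAA 33 bases before it. Dusp1 held the full TGACGTCA 143 bases before its start. In Zfp36 a CArG box, CCATAAAAGG, lay 58 bases before the start and an EGR site 105 bases before it.

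RefSeq promoters were found for 8 of the 10 genes, Egr1 and Ier2 being without an entry. TGACG, which is also contained in TGACGTCA, was present in 5 of the 8 (Fos, Fosb, Junb, Dusp1 and Nr4a1) and in 20.8% of all 32851 promoters. The EGR letters were present in 3 of 8 (Fosb, Zfp36, Nr4a1), against 5.55% of all promoters. TGANNTCA, which includes TGACGTCA, was present in 3 of 8 (Jun, Jund, Dusp1), against 14.1%. The Jund window, chr8:70697489-70697788, lies wholly before the counted gene, which begins at 70698949. It may thus not be the promoter of the transcript measured, though it stays in each count of 8. The CArG box and TGACGTCA were each in 1 of 8, against 1.63% and 1.79%, and TATAAA in 2 of 8 (Fos and Junb) against 13.6%. GGGCGG, the GC box, was in 6 of 8 and in 35.7% of all promoters. TGANTCA and CCATNTT were in 0 of 8, against 7.81% and 16.1%. The matches describe these letters in these windows and are not evidence of binding.

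Fos and Fosb encode the Fos partners of AP-1. Fos (ENSMUSG00000021250, chr12:85473890-85477273 in mm10) had 9.07, 20.7 and 52.1 CPM in Vehicle 1 to 3, and 45.3, 40.2 and 34.0 CPM in AG636 1 to 3. Vehicle 1 and Vehicle 2 were the lowest of the 6 mice and Vehicle 3 the highest, so the groups overlapped. The log2 fold change was 0.56 ± 0.46 (SE, n = 3 mice per group, 95% interval -0.47 to 1.59, adjusted p = 0.408, edgeR). Fosb (ENSMUSG00000003545, chr7:19302696-19310051) had 1.96, 4.17 and 17.7 CPM in the vehicle mice and 8.47, 9.65 and 9.59 CPM in the AG636 mice. It had the widest vehicle range of the group, with Vehicle 3 at 9.05 times Vehicle 1, and it rested on as few as 11 counts in Vehicle 1. Its log2 fold change was 0.27 ± 0.60 (SE, adjusted p = 0.778, edgeR) and turned to -0.20 without Vehicle 1 and -0.07 without Vehicle 2.

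Jun, Junb and Jund encode the Jun partners. Jun (ENSMUSG00000052684, chr4:95049034-95052222) had 81.6, 123.6 and 214.6 CPM in Vehicle 1 to 3 and 252.3, 265.9 and 254.8 CPM in the AG636 mice. The groups did not overlap, and the AG636 mice lay within 1.05-fold of each other. Jun was higher in AG636 by a log2 fold change of 0.89 ± 0.27 (SE, n = 3 per group, 95% interval 0.28 to 1.50, adjusted p = 0.0451, edgeR). It was the only member called higher, 1 of the 9 tested, where 10.3% of all genes tested were called higher, and 0 were called lower, where 11% of all genes were. That share is near the background. The adjusted p of Jun was 0.0765 without Vehicle 1, 0.145 without Vehicle 2, 0.0986, 0.0717 and 0.102 without AG636 1, 2 and 3, and 0.00557 without Vehicle 3.

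Jund (ENSMUSG00000071076, chr8:70698949-70700616), the Jun gene known for steady rather than induced expression, had 233.1, 306.2 and 292.3 CPM in vehicle and 342.9, 349.1 and 439.8 CPM in AG636. All AG636 mice were above all vehicle mice. The log2 fold change was 0.45 ± 0.14 (SE, 95% interval 0.12 to 0.77, adjusted p = 0.0522, edgeR), which missed the threshold and passed it with DESeq2 (adjusted p = 0.0398). Jun and Jund were the only members whose groups did not overlap, 2 of 10 beside 20.4% of all genes tested in the same direction. Junb (ENSMUSG00000052837, chr8:84974484-84978718) had 48.0, 53.5 and 85.8 CPM in vehicle and 71.5, 82.5 and 68.3 CPM in AG636. Vehicle 3 was above every AG636 mouse, and the log2 fold change was 0.25 ± 0.21 (SE, adjusted p = 0.409, edgeR). The end of Junb shares 692 bases with Prdx2 on the opposite strand, a gene with 13199 counts against 2195 for Junb, and since the use of strand in counting is not given in the sources used here, the Junb values are uncertain.

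Egr1 and Nr4a1 encode transcription factors outside AP-1, a zinc finger protein and an orphan nuclear receptor. Egr1 (ENSMUSG00000038418, on chromosome 18) had 16.2, 30.0 and 59.0 CPM in vehicle and 47.0, 63.2 and 27.6 CPM in AG636. The groups overlapped, with Vehicle 1 below and AG636 2 above all mice of the other group. Egr1 was the member with the widest AG636 range among the 9 tested (2.29-fold), and AG636 3 lay below Vehicle 2 (log2 fold change 0.40 ± 0.42 SE, adjusted p = 0.515, edgeR). Nr4a1 (ENSMUSG00000023034, chr15:101254269-101274795) had 4, 8 and 14 counts in the vehicle libraries and 4, 8 and 6 in the AG636 libraries. At 0.711 to 2.92 CPM in vehicle and 0.847 to 1.64 CPM in AG636 its levels were near the floor, and a difference was not detectable at this depth.

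Ier2, Dusp1 and Zfp36 are immediate early genes of other kinds. Ier2 (ENSMUSG00000053560, chr8:84661331-84662852), a nuclear protein gene that lies 0.312 Mb from Junb, had 30.6, 34.9 and 67.3 CPM in vehicle and 59.5, 50.7 and 49.6 CPM in AG636. As with Fos and Junb, Vehicle 3 was above all AG636 mice (log2 fold change 0.28 ± 0.26 SE, adjusted p = 0.480, edgeR). Dusp1 (ENSMUSG00000024190, chr17:26505590-26508519) encodes the phosphatase that switches off p38 and JNK. It had 30.8, 37.4 and 79.8 CPM in vehicle and 88.7, 74.1 and 82.9 CPM in AG636. Vehicle 1 and 2 lay below the AG636 mice and Vehicle 3 among them. Its log2 fold change was 0.74 ± 0.30 (SE, 95% interval 0.08 to 1.40, adjusted p = 0.0977, edgeR), and it passed the threshold with DESeq2 (adjusted p = 0.0472) and limma-voom (adjusted p = 0.0460).

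Zfp36 (ENSMUSG00000044786, chr7:28376784-28380253) encodes tristetraprolin, which binds AU-rich elements and speeds the decay of the transcripts that hold them. It had 6.40, 13.2 and 19.8 CPM in vehicle and 16.9, 26.5 and 22.9 CPM in AG636, so only Vehicle 3 overlapped with the AG636 mice. The log2 fold change was 0.76 ± 0.35 (SE, adjusted p = 0.137, edgeR).

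**Figure D2:**
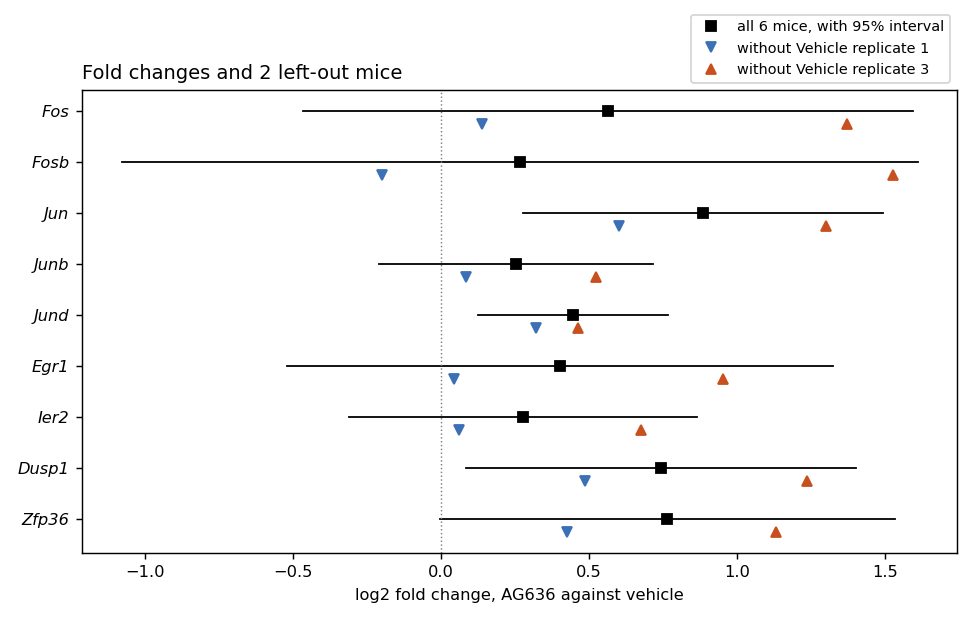
Log2 fold change of the 9 tested genes, AG636 against vehicle, with all 6 mice (squares, 95% interval as bars), without Vehicle 1 (blue) and without Vehicle 3 (orange). The interval lies above 0 for Jun, Jund and Dusp1, and leaving out Vehicle 1 lowers and leaving out Vehicle 3 raises each of the 9 values (Fos 0.14 and 1.37). Vehicle 1 was the lowest vehicle mouse for these genes and Vehicle 3 the highest for most, so these directions follow from the mouse left out.

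The count of members called therefore turned on Vehicle 3. Without it, 7 of the 9 were called higher, where 8.86% of all genes tested in that fit were: Fos (log2 fold change 1.37), Fosb (1.53), Jun (1.30), Junb (0.52), Ier2 (0.68), Dusp1 (1.24) and Zfp36 (1.13). Vehicle 3 was the highest vehicle mouse for 9 of the 10 members in these same values. Leaving it out removes their highest vehicle level, so higher fold changes follow from that choice. The 7 calls are thus not separate support for a difference. Without any one of the other 5 mice the count was 0, with 3.56% to 9.47% of all genes called higher. Jund and Egr1 were not among the 7, at 0.46 (adjusted p = 0.0864) and 0.95 (adjusted p = 0.0903, edgeR). Fold changes without Vehicle 1 were 0.14 for Fos, 0.60 for Jun and 0.49 for Dusp1. The labels record nothing that sets Vehicle 1 or Vehicle 3 apart, and all 6 mice stay in the values above. In the libraries themselves, Vehicle 1, 2 and 3 had 4.50%, 3.36% and 3.003% of counts in mitochondrial genes, the reverse of the order of the members, and AG636 libraries had 2.92% to 3.77%. Vehicle 1 had the fewest genes with a count (15911, beside 16148 to 17010 in the other 5). On the first principal component of all genes tested, which held 58.8% of the variance, Vehicle 1 to 3 lay at -49.7, -24.9 and -15.4 and the AG636 mice at 19.7 to 41.2. The part of these differences in the members' levels was not tested.

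The spread itself was measured as the SD of log2 CPM among the 3 mice of a group. For the 9 tested members its median was 0.72 in vehicle and 0.14 in AG636, while over all genes tested it was 0.21 and 0.20. The SD was wider in vehicle for 9 of 9 members, against 51.3% of all genes. Fosb had the largest vehicle SD of the members at 1.52, followed by Fos at 1.24, and Jund the smallest at 0.21, beside 0.20 in AG636. Jun had 0.70 in vehicle and 0.04 in AG636. Levels followed the order Vehicle 1, 2, 3 from low to high in 9 of 10 members, Jund being the exception, and in 20.7% of all genes tested. The members move together, so these counts are of 1 pattern in 3 mice and not of separate observations. Between Vehicle 2 and Vehicle 3 alone the levels still differed by 2.51-fold for Fos, 4.24-fold for Fosb, 2.13-fold for Dusp1 and 1.74-fold for Jun, while Jund stayed at 0.955-fold.

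**Figure D3:**
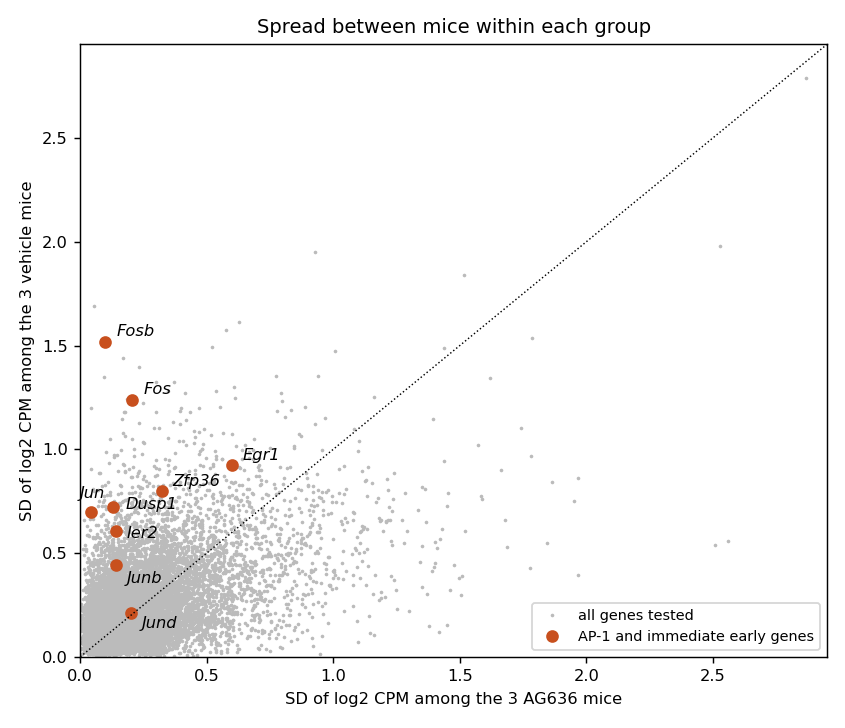
SD of log2 CPM among the 3 AG636 mice (horizontal) and among the 3 vehicle mice (vertical) for all 11092 genes tested (grey) and the 9 tested members (orange), with equal spread on the dotted line. The members lie above the line, Fosb highest (1.52 and 0.10) and Jund almost on it (0.21 and 0.20).

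Markers of other cells moved along the same libraries. The 9 erythroid markers summed to 5243 CPM in Vehicle 1, 3398 in Vehicle 2 and 2001 in Vehicle 3, the reverse of the order of the members, and to 2032 to 3596 CPM in AG636. The 11 late neutrophil markers summed to 1086, 2177 and 2454 CPM in Vehicle 1 to 3 and to 2999 to 6043 CPM in AG636, with no overlap between groups. S100a8 and S100a9 made up most of that sum. S100a8 alone overlapped, at 482.9 to 1334 CPM in vehicle and 1323 to 3139 CPM in AG636 (adjusted p = 0.0872, edgeR). Mmp8 and Mmp9 overlapped too, while the other late neutrophil markers, S100a9 among them, did not. The 12 monocyte and macrophage markers, whose sum also did not overlap, had 96.5 to 136.3 CPM in vehicle and 207.6 to 262.2 CPM in AG636. The 12 genes listed for the sorted progenitors summed to 2704 to 5339 CPM in vehicle and 2408 to 5744 CPM in AG636, a sum of unlike members that does not stand for the gate. The granule gene Mpo had 1248 to 2764 CPM in vehicle and 615.4 to 2015 CPM in AG636. Meis1 (log2 fold change 1.01 ± 0.19 SE, adjusted p = 0.00795) and the pan-leukocyte gene Ptprc (0.65 ± 0.15, adjusted p = 0.0142, edgeR) were higher in AG636 without overlap, as was Itgam, against which the gate selects. Hoxa9 had 0 to 0.564 CPM. The mast and basophil sum had 465.3 to 727.9 CPM in vehicle and 728.9 to 1366 in AG636. With RLE size factors its groups overlapped, with vehicle up to 732.9 and AG636 from 722.7 CPM. Its largest gene, Cpa3, overlapped too, at 248.7 to 407.0 CPM in vehicle and 384.0 to 930.7 in AG636. The other lists overlapped between groups with TMM scaling. The summed markers of T and NK cells had 192.7 to 491.9 CPM over all 6 mice, and of B cells 8.71 to 22.4. Dendritic cell markers had 22.8 to 40.7 CPM, those of megakaryocytes and platelets 771.6 to 1692, and those of endothelial and stromal cells 105.1 to 244.2. In several of these sums 1 gene made up most of the value, so they are not levels of those cells. Nkg7 alone had 190.6 to 490.8 CPM, while the other T and NK markers, Cd3e among them, had at most 2.44 CPM. Pecam1 alone had 102.9 to 243.9 CPM, while the other endothelial and stromal markers had at most 1.60 CPM, Cdh5 and Lepr having 0 counts in every library. Cd79b had 5.33 to 19.0 CPM of the B cell sum and Bst2 15.6 to 36.8 CPM of the dendritic sum. In the other lists no marker was at 0 in all 6 libraries. The part of these cells in the levels of Fos, Jun and the other members was not tested.

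**Figure D4:**
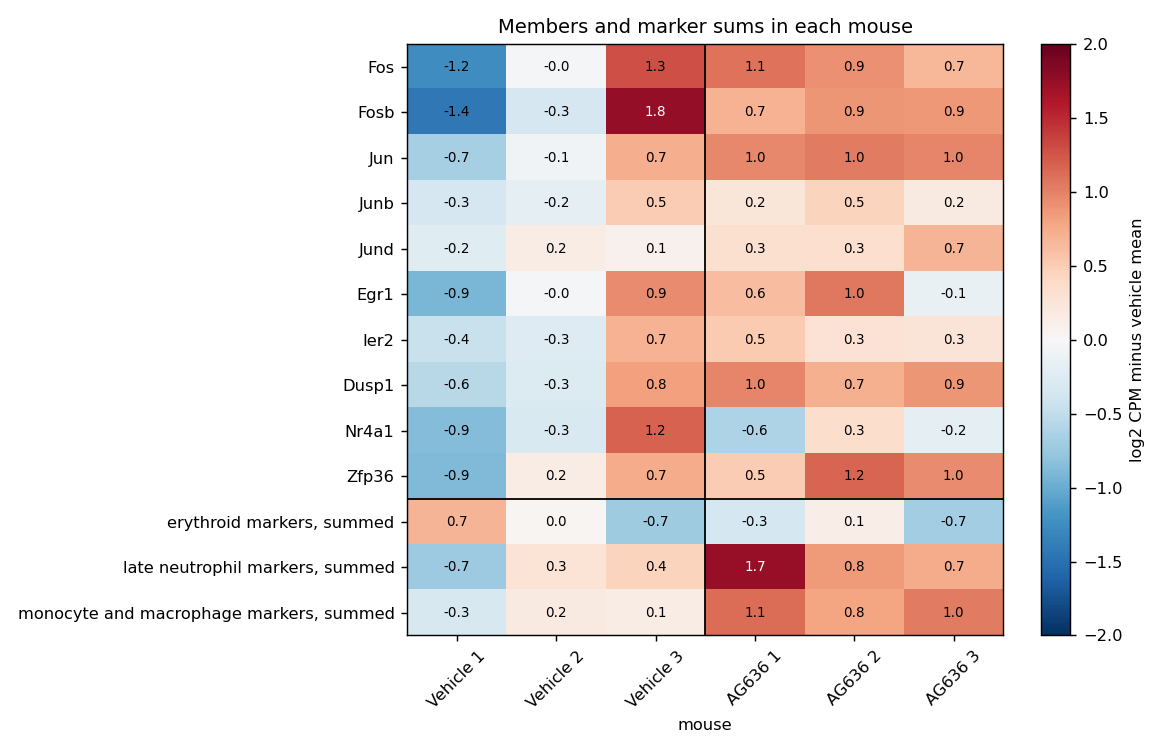
Log2 CPM of the 10 genes and of 3 summed marker lists in each mouse, as the difference from the mean of the 3 vehicle mice, in red where higher and blue where lower. Within vehicle the members go from blue in mouse 1 to red in mouse 3 and the erythroid sum goes the other way (5243 to 2001 CPM), and in AG636 the neutrophil and monocyte sums are red in all 3 mice.

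Between family members, the proportion of counts within a library does not depend on scaling. The log2 ratio of Jun to Junb was 0.76, 1.21 and 1.32 in the vehicle mice and 1.82, 1.69 and 1.90 in the AG636 mice. Every AG636 mouse was above every vehicle mouse, a difference of 0.70 (exact two-sided permutation test p = 0.1, the smallest that 3 against 3 allows, 0.4 after adjustment over the 4 ratios). The overlap of Junb with Prdx2 bears on this ratio too. Jun to Jund was -1.51, -1.31 and -0.45 in vehicle and -0.44, -0.39 and -0.79 in AG636, a difference of 0.55 (exact permutation p = 0.2, adjusted 0.4). Fosb to Fos and Junb to Jund differed by -0.09 and -0.15 between groups (exact permutation p = 0.8 and 0.7, adjusted 0.8 each). An exact permutation test of 3 against 3 cannot reach 0.05.

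AU-rich elements, the sites of tristetraprolin, were looked up in the 3′ UTRs of GENCODE transcripts, since Zfp36 itself is a member. The nonamer TTATTTATT was found in 3 of the 10 genes, once in Fos, once in Zfp36 and at 2 places in Dusp1. The site is shown in capitals for each (the first for Dusp1), in the sense of the transcript, at chr12:85477103-85477131 (plus) for Fos, chr17:26506159-26506187 (minus) for Dusp1 and chr7:28376951-28376979 (minus) for Zfp36.
Fos: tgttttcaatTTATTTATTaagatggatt
Dusp1: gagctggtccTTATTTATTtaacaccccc
Zfp36: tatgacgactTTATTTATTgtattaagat
The shorter ATTTA occurred 4 times in the 3′ UTRs of Fos, Jun and Dusp1 each, 3 times in Nr4a1 and Zfp36, 2 times in Junb and Egr1, once in Fosb and Jund, and 0 times in Ier2. Of the 10148 tested genes with a 3′ UTR, 8.12% held the nonamer. These were called higher at 10.2% and lower at 7.89%, with a median log2 fold change of 0.08, and all genes with a 3′ UTR were called at 9.78% and 11.5%, with a median of 0.01. The share called higher was thus near the background, and the share called lower was below it. Genes with the nonamer had longer 3′ UTRs (median 2439.5 bases, against 1178.5 for all genes with a 3′ UTR). The part of this length in the shares was not tested.

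Other genes of the pathway were read from lists, whose counts stand beside the 10.3% and 11% of all genes called higher and lower. Of the 16 other AP-1 and related bZIP factors, 11 were tested, 2 were higher and 0 lower, with a median log2 fold change of 0.29. Maf had 2.92 to 4.44 CPM in vehicle and 6.14 to 13.3 CPM in AG636 (log2 fold change 1.48 ± 0.35 SE, adjusted p = 0.0176), and Bach1, a repressor that pairs with small Maf proteins, 19.0 to 24.1 and 29.2 to 36.5 CPM (0.61 ± 0.18, adjusted p = 0.0383, edgeR). The Fos relative Fosl2 did not overlap between groups, at 3.20 to 7.56 CPM in vehicle and 9.21 to 11.9 CPM in AG636, but missed the threshold (0.88 ± 0.32, adjusted p = 0.0741, edgeR). Fosl1 had a log2 fold change of -0.68 ± 0.51 (adjusted p = 0.359, edgeR). Atf3 had 0 to 2.07 CPM over the 6 mice and was not tested. With a mouse left out, the share of all genes called higher was 4.62%, 4.41% and 8.86% without Vehicle 1, 2 and 3, and 5.32%, 9.47% and 3.56% without AG636 1, 2 and 3. This list's count of higher genes was 0 without Vehicle 2 or without AG636 3, and 1 without Vehicle 1, Vehicle 3 or AG636 1.

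Among 17 other immediate early transcription factors, 9 were tested, 3 were higher and 0 lower, with a median of 0.84. Id2, an inhibitor of basic helix-loop-helix factors, had 17.6, 38.1 and 54.8 CPM in Vehicle 1 to 3 and 89.5, 102.5 and 94.6 CPM in AG636 (log2 fold change 1.38 ± 0.31 SE, adjusted p = 0.0142, edgeR). Its vehicle mice stood in the same order as those of Fos, but all lay below the AG636 mice. Klf6 rose by a log2 fold change of 1.11 ± 0.22 (adjusted p = 0.00901) and Id1 by 0.90 ± 0.24 (adjusted p = 0.0249, edgeR). Klf2 had 11.2, 22.6 and 58.5 CPM in Vehicle 1 to 3 and 49.3 to 63.1 CPM in AG636, with Vehicle 3 inside the AG636 range as for Dusp1 (0.89 ± 0.44, adjusted p = 0.176, edgeR). Nr4a2 had a log2 fold change of -0.01 (adjusted p = 0.985, edgeR). Egr2, Egr3 and Klf4 were not tested, with at most 0.625, 0.752 and 2.92 CPM. The list's count of higher genes was 1 without Vehicle 2, 2 without Vehicle 1 or any one AG636 mouse, and 5 without Vehicle 3.

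The effector list held the largest number of calls. Of 26 genes, 22 were tested, 8 were higher and 0 lower, with a median log2 fold change of 0.75. Among the 8 were the antiproliferative genes Btg1 (0.78 ± 0.13 SE, adjusted p = 0.00593) and Btg2 (1.14 ± 0.25, adjusted p = 0.0127), and the growth arrest and DNA damage gene Gadd45g (1.20 ± 0.19, adjusted p = 0.00492, edgeR). Also higher were the kinase gene Pim1 (0.99 ± 0.22, adjusted p = 0.0137), Ier5 (0.84 ± 0.21, adjusted p = 0.021) and the tristetraprolin relative Zfp36l1 (0.72 ± 0.19, adjusted p = 0.0231, edgeR). Gadd45a and Rhob made up the rest. Btg2 had 9.42 to 17.3 CPM in vehicle and 27.1 to 37.6 CPM in AG636, with no overlap at Vehicle 3. Ier3 had a log2 fold change of 0.56 ± 0.23 (adjusted p = 0.113, edgeR). The count of higher genes fell to 3 without Vehicle 2 and 4 without AG636 3, was 6, 7 and 9 without AG636 1, Vehicle 1 and AG636 2, and reached 14 without Vehicle 3, beside the shares of all genes given above. Without Vehicle 1, 1 row was called lower. The counts with a mouse left out were matched by symbol, which gave 23 rows for this list with all 6 mice, where 22 genes were tested. They may thus include a row of another gene.

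Upstream of the members, 17 of 18 SRF, TCF and CREB factors were tested, 2 were higher and 0 lower, with a median of 0.19. These 2 were Mef2c (log2 fold change 1.11 ± 0.19 SE, adjusted p = 0.00611) and the SRF coactivator Mrtfa (0.63 ± 0.16, adjusted p = 0.0245, edgeR). Srf itself had 2.26 to 6.14 CPM over the 6 mice and a log2 fold change of -0.26 ± 0.39 (adjusted p = 0.665, edgeR). All 17 genes of the MAP kinase list were tested, with 1 higher, the MSK1 gene Rps6ka5 (0.83 ± 0.21, adjusted p = 0.0211), 1 lower, the MEK2 gene Map2k2 (-0.50 ± 0.14, adjusted p = 0.0338, edgeR), and a median of 0.11. Of 9 other MAP kinase phosphatases 7 were tested, and Dusp6, the ERK phosphatase, was higher at 99.9, 116.8 and 97.6 CPM against 36.6, 47.6 and 66.7 CPM in vehicle (1.06 ± 0.20, adjusted p = 0.00799, edgeR). The median of that list was 0.39, with 0 lower. Of the SRF, TCF and CREB list, 1 gene was called higher without Vehicle 1, Vehicle 2, AG636 1 or AG636 3. The MAP kinase list had 0 higher and 0 lower without Vehicle 1, AG636 1 or AG636 3, 0 lower without Vehicle 2, and 2 higher without Vehicle 3 or AG636 2. Of the phosphatases, 2 were higher without Vehicle 3, and 1 was lower without Vehicle 3 or AG636 2.

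All 19 genes of AU-rich element binding and deadenylation were tested, 3 were higher and 1 lower, with a median of 0.04. The higher ones were Zfp36l1 (given above, since it stands in both lists), the deadenylase gene Cnot6l and Tob2, both at a log2 fold change of 0.72 (± 0.14 SE, adjusted p = 0.0078 and 0.00832, edgeR). Elavl1, which encodes the stabilizing factor HuR, fell by 0.93 ± 0.12 on the log2 scale (adjusted p = 0.00247, edgeR). With a mouse left out, 2 to 4 genes of this list were higher and 1 to 2 lower, the 2 lower without Vehicle 3 or AG636 2.

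Of 10 heat shock genes known to respond to cell dissociation along with immediate early genes, 10 were tested, 0 were higher and 6 lower, with a median log2 fold change of -0.61. Hsph1 fell by 1.92 ± 0.12 on the log2 scale, Hspd1 by 1.29 ± 0.16 and Hspa8 by 1.12 ± 0.13 (adjusted p = 0.000186, 0.00245 and 0.00203, edgeR), and Hspe1, Hsp90aa1 and Dnaja1 were also lower. With any one mouse left out 5 of the list were lower, and without Vehicle 3 there was also 1 higher. The inducible Hspa1b, in contrast, had 104.2, 133.7 and 316.0 CPM in Vehicle 1 to 3 and 336.1, 188.1 and 312.7 CPM in AG636 (0.60 ± 0.37, adjusted p = 0.262, edgeR), with Vehicle 3 highest of the vehicle mice as for the members. Hspa1a had a log2 fold change of 0.46 ± 0.36 (adjusted p = 0.385, edgeR), with the same order of the vehicle mice, 29.3, 42.0 and 83.5 CPM. Both copies are near identical, so reads may be split between them. Whether handling of the samples had a part in the spread of the members was not tested.

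**Figure D5:**
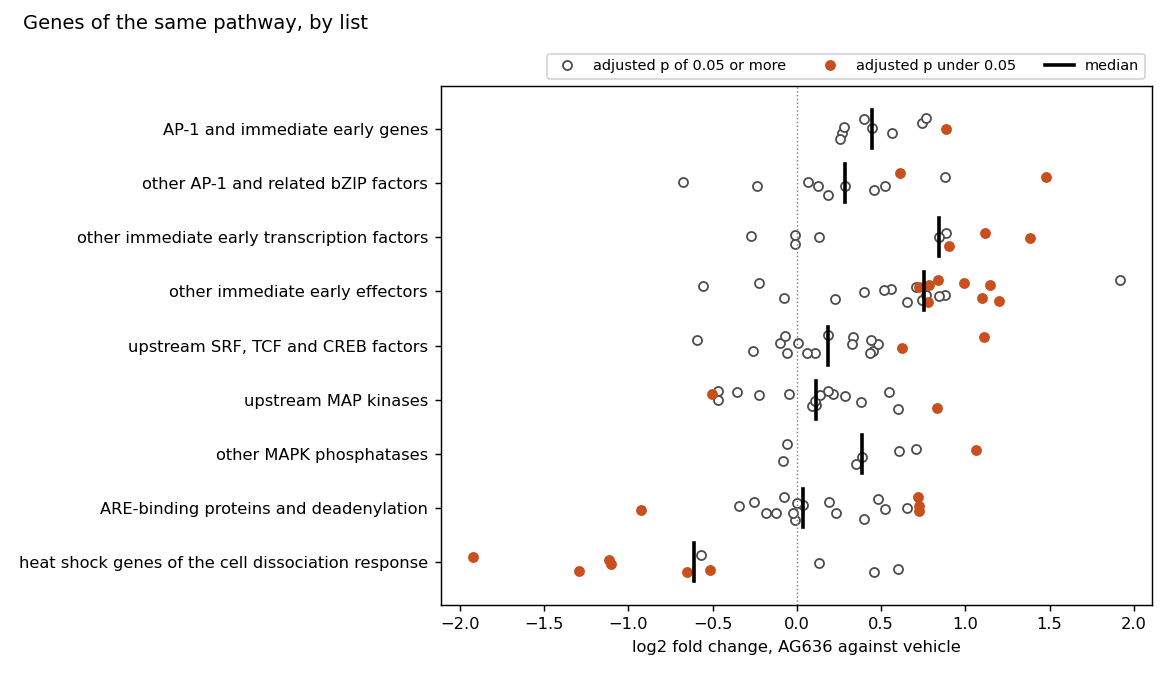
Log2 fold change, AG636 against vehicle, of each tested gene in the 9 lists, filled orange where the adjusted p was under 0.05, with a bar at the list's median. The immediate early transcription factors and effectors have medians of 0.84 and 0.75, the members 0.45, and 6 of the 10 heat shock genes are filled below 0.

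The genes most like Fos were named by Pearson's r of log2 CPM over the 6 mice after subtracting each group's mean, as a description. Of 11091 other tested genes, the 10 with the highest r (0.990 to 0.998) were Fam120b, Tbkbp1, Mbtps2, Pard6b, Lgals1, Icam1, Phax, Pigx, Elovl5 and Tmed9, none of them an AP-1 gene. Among the members, Jun had an r of 0.983 with Fos (rank 29), Fosb 0.962, Ier2 0.941, Dusp1 0.938, Junb 0.911, Egr1 0.890 and Zfp36 0.864, and Jund had 0.431. The 6 points share their libraries, and the largest deviations of Fos from its group mean were those of Vehicle 1 and Vehicle 3.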

How the data were processed

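RNA was measured in 6 libraries (QuantSeq 3′ mRNA sequencing). The authors deposited read counts per gene for each sample. Per the labels, reads were trimmed with cutadapt 1.9.1, mapped to GRCm38 (mm10) with HISAT2 2.0.4 and counted with featureCounts of Subread 1.5.0-p3; strand use, annotation release and multi-mapping are not given in the sources used here. The table held 54838 genes, of which 54723 received a GENCODE symbol, and 0 per-sample columns were left unused.

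Counts were tested in R 4.3.3 with edgeR 4.0.16 (TMM, filterByExpr with a minimum count of 10 and total of 15, quasi-likelihood test of AG636 against vehicle, Benjamini-Hochberg over all genes tested, calls under 0.05). DESeq2 1.42.0, limma-voom 3.58.1, other scalings and filters, a replicate block and left-out mice were alternatives. Log2 CPM used a prior count of 2 and ratios 0.5 added to counts. Scripts were tested on simulated counts. The members, lists and motifs were chosen with earlier results of these data known. All members were named; from other lists, the called genes of lowest adjusted p (at most 6 per direction) and a short preset group were named. Replicates were separate mice, and p-values test the difference between groups against the variation between these mice. No p-value was taken for the spread itself.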

Additional observations from a re-analysis of the deposited data

How the results depend on the processing

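The number of members called higher, 1 of 9, was 3 with DESeq2 (Jun, Jund, Dusp1), 2 with limma-voom (Jun, Dusp1), 2 with library size alone (Jun, Jund) and 4 with no filter (Jun, Jund, Dusp1, Zfp36), and was also 1 with RLE size factors and with at least 10 counts in every sample. The share of all genes called higher was 10.5% with DESeq2, 10.3% with limma-voom, 9.98% with RLE size factors and 13.4% with library size alone. It was 7.19% with no filter, 10.5% with at least 10 counts in every sample and 8.24% with the replicate block. With a mouse left out the number of members called higher ranged from 0 to 7, and the number called lower was 0 under every alternative run. With the replicate block the number of members called higher was 2 (Jun, and Jund with adjusted p = 0.0469, edgeR). Same-numbered mice are different animals, and the correlations of their deviations were -0.06, -0.18 and 0.23. With 3 values and no comparison with unlike-numbered mice, they cannot show whether the numbers stand for a shared batch. The whole-table counts ranged from 399 to 1074 higher and from 452 to 1298 lower with a mouse left out. Scaling by library size alone gave 1483 higher and 913 lower against 1146 and 1222, and a median log2 fold change of all genes of 0.12 against 0.03. The log2 fold change of Fosb was -0.20 without Vehicle 1 and -0.07 without Vehicle 2, and reached 1.53 without Vehicle 3. With a mouse left out, the log2 ratio differences ranged from -0.23 to 0.14 for Fosb to Fos, which was 0.070 without AG636 1, from -0.32 to 0.055 for Junb to Jund, which was 0.018 without AG636 3, from 0.34 to 0.87 for Jun to Jund, and from 0.54 to 0.81 for Jun to Junb. The causes of these changes were not tested. With no filter Nr4a1 had a log2 fold change of -0.34 (adjusted p = 0.769, edgeR). Depth limits Nr4a1 and Fosb most, with as few as 4 and 11 counts.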
